A study of Mus musculus with 4 samples.

Results

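Expression of 10 genes of extracellular proteolysis was followed in mouse bone marrow cells given a compound called R or its solvent: the metalloproteinase inhibitors Timp1, Timp2 and Timp3, the plasminogen activation genes Plau, Plaur, Plat and Serpine2, and the proteases Adamts1, Adamts2 and Adamts5. The 10 genes were chosen by name, as members of these families, out of 54532 genes in the deposited expression table. Earlier results of these data were known when the genes and the wider lists were chosen. The cells are labelled MSCs, mesenchymal stromal cells, came from CB6F1 mice (an F1 hybrid laboratory strain) by digestion of whole bone marrow, and were grown in high-glucose DMEM with FBS and P/S. The 2 R libraries came from cells treated in vitro with R at 0.5 µM (the labels write "um" and do not say what R is), and the 2 vehicle libraries from cells treated with DMSO. The titles of all 4 libraries carry the term aGVHD, so the controls share that origin, and no library of cells without it was part of the comparison. Whether the replicates are different mice or cultures is not stated in the labels, so the p-values below cover only the variation among these 4 libraries, which could be technical.

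Proteases that cut the extracellular matrix are held in check by dedicated inhibitors. TIMPs bind the active site of matrix metalloproteinases (MMPs), and Timp3 is also known to inhibit ADAM and ADAMTS enzymes. The plasminogen activators Plau (urokinase, uPA) and Plat (tissue-type activator, tPA) cut plasminogen to plasmin, a broad protease; Plaur is the surface receptor that holds urokinase at the cell, and Serpine2 (protease nexin-1) is an inhibitor of thrombin and of both activators. ADAMTS proteases are secreted metalloproteinases with thrombospondin repeats: Adamts1 and Adamts5 cut the large proteoglycans aggrecan and versican, and Adamts2 removes the amino-terminal propeptide of fibrillar procollagens. In bone marrow, stromal cells and macrophages both make such enzymes while they remodel the matrix around blood-forming cells.

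None of the 10 genes passed the test between R and vehicle with all 4 libraries in the fit. Values are FPKM, which scales reads by the length of the gene and the size of the library, and fold changes are differences in log2(FPKM + 1), which understates the change of low genes. All 10 genes passed the filter, an average over the libraries of 1 FPKM or more, and were tested with limma among 12176 genes, with Benjamini-Hochberg adjustment over all of them and a threshold of 0.05. In that test 0 of the 10 were called higher, where 0.345% of all tested genes were, and 0 were called lower, where 1.37% were. None had an unadjusted p under 0.05, which 16.0% of all tested genes had, and the voom model on recovered reads also called 0. The log2 fold change was above 0 for 6 genes and below 0 for 4, with a median of 0.05 beside 0.00 over all tested genes. The values of the R and vehicle libraries did not overlap for 5 of the 10 genes, 2 of them higher and 3 lower in R, and the same was true of 47.9% of all tested genes.

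**Figure D1:**
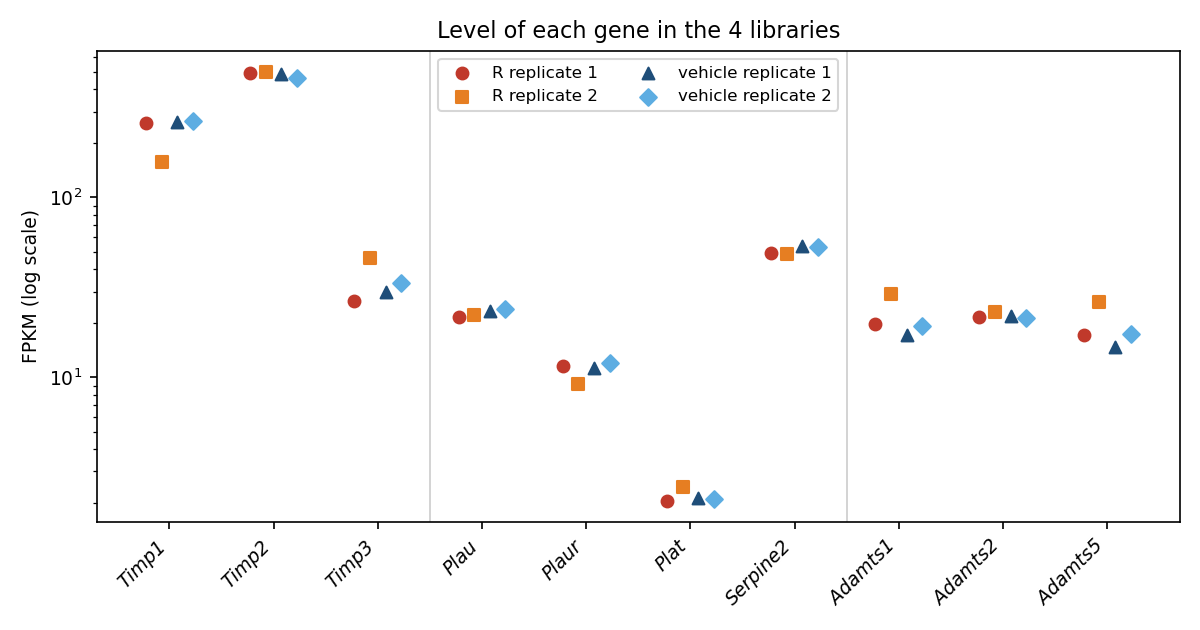
FPKM (log scale) of the 10 genes in each of the 4 libraries, with 1 symbol per library and lines between the TIMPs, the plasminogen activation genes and the ADAMTS proteases. Timp2 is highest and Plat lowest in every library, and the square of R replicate 2 stands apart from the other 3 libraries for Timp1, Timp3, Adamts1 and Adamts5.

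Levels spanned a wide range, with the same genes at the top and the bottom in every library. Over the 4 libraries the mean FPKM was highest for Timp2, at 483, followed by Timp1 at 237 and Serpine2 at 51. Timp3 had a mean of 33.8 FPKM. Plau at 22.8, Adamts2 at 22, Adamts1 at 21.4 and Adamts5 at 18.9 FPKM formed a group of neighbours whose library values overlapped, so no order among these is given. Plaur followed with a mean of 11 FPKM, and Plat was lowest with 2.19. Reads behind a value ran from 236, for Plat in each vehicle library, to 36911, for Timp2 in R replicate 1.

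Timp2 (ENSMUSG00000017466, chromosome 11, 118301069 to 118355740 of GRCm38, minus strand), the inhibitor that also takes part in activation of pro-MMP2 at the cell surface, was the most abundant of the genes. It stood at 491 and 497 FPKM in R replicates 1 and 2 and at 484 and 460.3 in vehicle replicates 1 and 2. Both R values lay above both vehicle values, but by a small step. The means were 494 ± 3.95 (SD, n = 2) in R and 472 ± 17 (SD, n = 2) in vehicle. The log2 fold change was 0.06 (SE 0.162, 95% interval -0.33 to 0.46, limma adjusted p = 0.888). Timp2 supplied most of the TIMP transcripts per length: 63.2 and 71% of the summed TIMP FPKM in R and 62.3 and 60.5% in vehicle.

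Timp1 (ENSMUSG00000001131, chromosome X, 20870166 to 20874735, plus strand), a secreted inhibitor whose transcript is known to respond to cytokines and growth factors, had 259 and 157 FPKM in R replicates 1 and 2 and 264 and 267 in vehicle. R replicate 1 was level with the vehicle libraries, and R replicate 2 alone was low. The means were 208 ± 72.2 (SD, n = 2) in R and 266 ± 2.52 (SD, n = 2) in vehicle, a log2 fold change of -0.40 (SE 0.255, 95% interval -1.03 to 0.23, limma adjusted p = 0.518). Against the vehicle mean, R replicate 1 alone differed by -0.04 and R replicate 2 alone by -0.76 on the log2 scale. Timp1 was called lower only with R replicate 1 left out. In that fit R has 1 library, which is assumed to vary as the vehicle libraries do, and calls rose over all tested genes as well. Timp1 lies within Syn1, on the opposite strand, with 0 exon bases shared, and Syn1 was at 1.42 to 2.44 FPKM.

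Timp3 (ENSMUSG00000020044, chromosome 10, 86300372 to 86349506, plus strand), the TIMP that binds to the matrix, stood the other way in R replicate 2. It had 26.6 and 45.8 FPKM in R replicates 1 and 2 and 29.7 and 33.3 in vehicle. R replicate 1 was the lowest of the 4 libraries and R replicate 2 the highest, so the groups overlapped. The means were 36.2 ± 13.6 (SD, n = 2) and 31.5 ± 2.59 (SD, n = 2), with a log2 fold change of 0.15 (SE 0.257, 95% interval -0.49 to 0.78, limma adjusted p = 0.838). Without R replicate 2 the log2 fold change was -0.24, and without R replicate 1 it was 0.53. Timp3 shares 1733 exon bases with Syn3 on the opposite strand. Whether reads were counted by strand is not given in the sources used here, so reads of the 2 genes cannot be told apart there, and Syn3 was listed at 0.0127 to 0.0272 FPKM.

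The balance among the inhibitors differed within the R group. The ratio of Timp1 to Timp3 FPKM was 9.75 in R replicate 1 and 3.42 in R replicate 2, and 8.89 and 8.02 in the vehicle libraries. R replicate 1 lay just above the vehicle ratios and R replicate 2 far under them. The summed TIMP FPKM was 776 and 699 in R and 778 and 761 in vehicle. Timp4, the remaining family member, reached at most 0.0567 FPKM and was not tested.

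Promoter sequence is shown for 3 genes: Timp1, which differed most among the TIMPs in R replicate 2, Adamts1, which had the smallest adjusted p of the 10, and Plaur, which held a match to the AP-1 motif. RefSeq promoter windows on GRCm38.p6 were found for 7 of the 10 genes (Timp1, Timp2, Timp3, Plaur, Serpine2, Adamts1 and Adamts2), and the 250 bases before the start were searched on both strands for TGANTCA (AP-1), TTCNNNGAA (STAT), TATAAA and an interferon response motif. Each line runs 5′ to 3′ on the gene's strand, with motif matches in capitals.
Timp1, chrX:20869916-20870165, plus strand: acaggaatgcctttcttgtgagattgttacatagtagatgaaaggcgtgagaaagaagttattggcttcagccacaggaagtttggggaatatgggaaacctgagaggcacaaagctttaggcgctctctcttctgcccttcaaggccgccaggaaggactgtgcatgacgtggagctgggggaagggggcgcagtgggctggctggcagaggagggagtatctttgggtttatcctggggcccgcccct
Plaur, chr7:24462233-24462482, plus strand: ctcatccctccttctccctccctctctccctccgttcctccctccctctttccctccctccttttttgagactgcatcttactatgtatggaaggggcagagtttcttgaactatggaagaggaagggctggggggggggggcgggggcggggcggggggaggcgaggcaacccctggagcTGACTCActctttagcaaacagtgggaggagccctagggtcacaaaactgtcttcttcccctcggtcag
Adamts1, chr16:85803114-85803363, minus strand: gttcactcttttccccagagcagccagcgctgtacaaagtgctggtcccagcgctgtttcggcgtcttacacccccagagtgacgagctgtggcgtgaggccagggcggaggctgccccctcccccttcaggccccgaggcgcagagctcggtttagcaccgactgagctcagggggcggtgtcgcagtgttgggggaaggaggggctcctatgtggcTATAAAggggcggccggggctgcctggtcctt
The capitals in Plaur are TGACTCA, which begins 69 bases before the start, and no other of the 7 windows held the AP-1 motif, found in 6.75% of 32851 RefSeq windows of the same length. The capitals in Adamts1 are the TATAAA match 32 bases before its start, a motif in 12.4% of windows. The STAT motif (7.02% of windows) and the interferon response motif (2.98%) matched 0 of the 7. A match is a string of letters in the window and does not show that a factor binds there.

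Plau (ENSMUSG00000021822, chromosome 14, 20836660 to 20843385, plus strand), which encodes urokinase, had 21.6 and 22.1 FPKM in R and 23.4 and 23.9 in vehicle. Both R libraries lay under both vehicle libraries, and replicates stood close together in each group. The means were 21.9 ± 0.328 (SD, n = 2) and 23.7 ± 0.285 (SD, n = 2), with a log2 fold change of -0.11 (SE 0.115, 95% interval -0.39 to 0.17, limma adjusted p = 0.706). On the TPM scale, which rescales each library to the same sum and moves the median of all tested genes to 0.13, it was 0.02.

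Plaur (ENSMUSG00000046223, chromosome 7, 24462484 to 24475968, plus strand), the urokinase receptor, stood at 11.6 and 9.21 FPKM in R replicates 1 and 2 and at 11.3 and 12 in vehicle. R replicate 1 fell between the vehicle values and R replicate 2 was the lowest. R against vehicle gave a log2 fold change of -0.16 (SE 0.145, 95% interval -0.52 to 0.20, limma adjusted p = 0.662). Ligand exceeded receptor in every library, with a Plau to Plaur FPKM ratio of 1.86 and 2.4 in R and 2.07 and 1.99 in vehicle.

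Plat (ENSMUSG00000031538, chromosome 8, 22757727 to 22782844, plus strand), the tissue-type activator, was scarce, with 2.06 and 2.46 FPKM in R and 2.14 and 2.11 in vehicle. The vehicle values lay between the R values. The log2 fold change was 0.06 (SE 0.142, 95% interval -0.29 to 0.41, limma adjusted p = 0.884). Urokinase was the main activator transcript, at 10.5 and 8.97 times the FPKM of Plat in R and 10.9 and 11.3 times in vehicle.

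Serpine2 (ENSMUSG00000026249, chromosome 1, 79794197 to 79861180, minus strand) had 48.9 and 48.2 FPKM in R and 53.7 and 53.1 in vehicle. Both R values were under both vehicle values. The means were 48.5 ± 0.447 (SD, n = 2) and 53.4 ± 0.424 (SD, n = 2), with a log2 fold change of -0.14 (SE 0.12, 95% interval -0.43 to 0.16, limma adjusted p = 0.649).

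Of 18 genes listed for the plasminogen system, 11 were tested and 0 were called in either direction with all 4 libraries. The log2 fold change was above 0 for 6 and below 0 for 5, with a median of 0.05, and 2 had an unadjusted p under 0.05. These were Lrp1, an endocytic receptor that clears activator and inhibitor complexes, and Mrc2, a collagen receptor that associates with the urokinase receptor, both named after their values were seen. Lrp1 had 105 and 142 FPKM in R and 68.2 and 86.2 in vehicle (log2 fold change 0.66, limma adjusted p = 0.204). Mrc2 had 70.3 and 73.5 in R and 45.2 and 49 in vehicle (log2 fold change 0.60, limma adjusted p = 0.0949). The R values of both lay above the vehicle values, and both were called higher with the length trend removed and without R replicate 1, Mrc2 also without R replicate 2. Calls over all tested genes rose in each of these fits. Plg, which encodes plasminogen itself, was listed at 0 in all 4 libraries, and Serpinb2, the inhibitor PAI-2, reached at most 0.309 FPKM. The most abundant listed genes were Eno1 and Anxa2, whose proteins can bind plasminogen at cell surfaces. Eno1 had 346 and 252 FPKM in R and 286 and 279 in vehicle (log2 fold change 0.06, limma adjusted p = 0.914). Anxa2 had 295 and 206 in R and 233 and 231 in vehicle (log2 fold change 0.09, limma adjusted p = 0.882). For both, R replicate 1 was the highest library and R replicate 2 the lowest, so the vehicle values lay between them.

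Adamts1 (ENSMUSG00000022893, chromosome 16, 85793827 to 85803113, minus strand) had 19.8 and 29.2 FPKM in R replicates 1 and 2 and 17.3 and 19.3 in vehicle. R replicate 1 was just above the higher vehicle library, and R replicate 2 was well above all others. The means were 24.5 ± 6.66 (SD, n = 2) and 18.3 ± 1.4 (SD, n = 2), with a log2 fold change of 0.38 (SE 0.199, 95% interval -0.11 to 0.87, limma adjusted p = 0.425). R replicate 1 alone differed from the vehicle mean by 0.11 and R replicate 2 alone by 0.65. Adamts1 was called higher with R replicate 1 left out, a fit in which calls rose over all tested genes, and not with R replicate 2 left out.

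Adamts5 (ENSMUSG00000022894, chromosome 16, 85856173 to 85901828, minus strand), its neighbour on the same strand, had 17.2 and 26.3 FPKM in R and 14.7 and 17.5 in vehicle. R replicate 1 fell between the vehicle libraries and R replicate 2 was the highest. The means were 21.8 ± 6.39 (SD, n = 2) and 16.1 ± 1.97 (SD, n = 2). The log2 fold change was 0.39 (SE 0.216, 95% interval -0.14 to 0.92, limma adjusted p = 0.455). R replicate 1 alone differed from the vehicle mean by 0.10 and R replicate 2 alone by 0.68. Without R replicate 1 Adamts5 was called higher, again in a fit where calls rose over all tested genes, and without R replicate 2 it was not.

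Adamts1 and Adamts5 are separated by 53059 bases with 1 annotated gene between them and 0 protein-coding ones, and followed each other across the libraries. The ratio of Adamts1 to Adamts5 FPKM was 1.15 and 1.11 in R and 1.18 and 1.1 in vehicle, although each gene varied more than that between the R libraries. Among 7137 genes averaging 5 FPKM or more, 6 lay closer to Adamts5 than Adamts1 did, by the distance between log2(FPKM + 1) values centred on each gene's mean over the 4 libraries. The closest were Sptbn1, a spectrin (distance 0.0218), Ddr2, a collagen receptor (0.0324), and Hgf, hepatocyte growth factor (0.0395), and Adamts1 was at 0.0694. For Timp1, the gene with the lowest log2 fold change, the closest were Tmub1 (0.00989), Plekho1 (0.0576) and Gpsm3 (0.0772). These distances are a description over 4 libraries, which all of the genes share and in which R replicate 2 stands apart for each of them.

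Adamts2 (ENSMUSG00000036545, chromosome 11, 50602084 to 50807573, plus strand), the procollagen N-propeptidase, was steady. It had 21.6 and 23.2 FPKM in R and 21.8 and 21.5 in vehicle. The R value of replicate 1 lay between the vehicle values, and that of replicate 2 was the highest. The means were 22.4 ± 1.12 (SD, n = 2) and 21.7 ± 0.21 (SD, n = 2), with a log2 fold change of 0.05 (SE 0.118, 95% interval -0.24 to 0.34, limma adjusted p = 0.884).

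**Figure D2:**
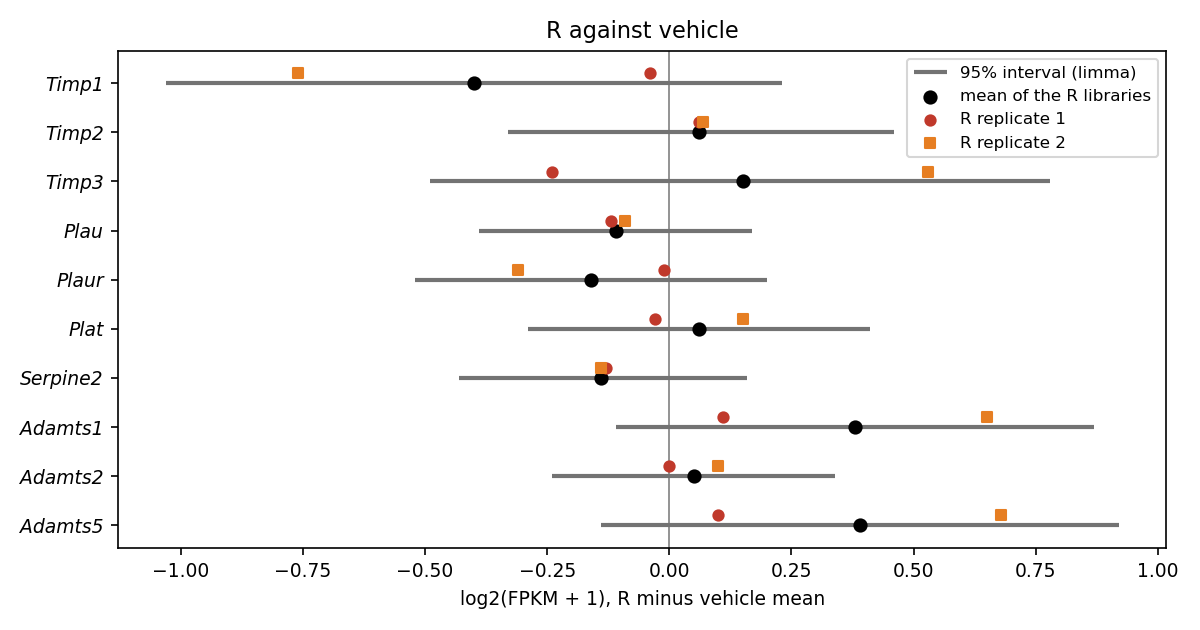
Difference from the vehicle mean in log2(FPKM + 1) for each gene: black points with grey 95% limma intervals are the mean of both R libraries, and coloured points are R replicates 1 and 2 alone. Every interval spans 0, and the coloured points lie far apart for Timp1, Timp3, Adamts1 and Adamts5.

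The 4 genes with the widest differences between the R libraries were Timp3, at 0.76 (log2 of replicate 2 minus replicate 1), Timp1, at -0.72, Adamts5, at 0.58, and Adamts1, at 0.54. A difference between the R libraries as large as that of Timp3 was seen in 2.47% of all tested genes, as large as that of Timp1 in 3.19%, as large as that of Adamts5 in 7.44% and as large as that of Adamts1 in 9.79%. The R libraries differed more than the vehicle libraries for 9 of the 10 genes. The median size of the difference over the 10 genes was 0.24 between the R libraries and 0.05 between the vehicle libraries, beside 0.23 and 0.11 over all tested genes.

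Gene length moved with the difference between replicates. Among the shortest of 5 equal groups of tested genes by exon length, the median of R replicate 2 minus replicate 1 was -0.31, and among the longest it was 0.24. The same medians for vehicle were -0.11 and 0.09. Timp1 has 888 exon bases, and the trend at that length was -0.30, which leaves -0.42 of its difference between the R libraries. Timp3 has 8144 exon bases, a trend of 0.17 and a remainder of 0.59. For Adamts1, with 5302 exon bases, the trend was 0.04 and the remainder 0.49, and for Adamts5, with 10791, they were 0.24 and 0.34. With the trend removed from each library the log2 fold changes against vehicle were -0.34 for Timp1, 0.14 for Timp3, 0.38 for Adamts1 and 0.34 for Adamts5, and none was called. What gives rise to the trend was not tested.

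**Figure D3:**
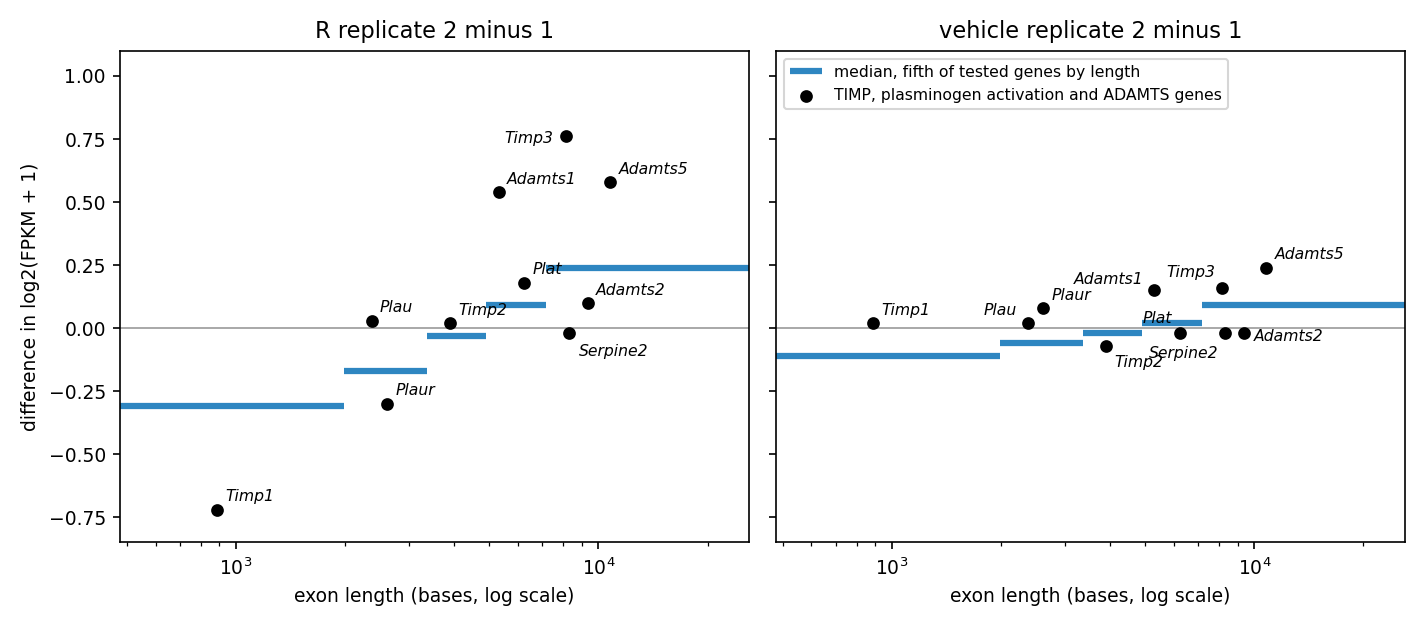
Difference between replicates in log2(FPKM + 1), replicate 2 minus replicate 1, against exon length (log scale), for R (left) and vehicle (right). Black points are the 10 genes, and blue bars are the medians of 5 equal groups of tested genes by length, the outer ones reaching past the axis; in R the bars climb from -0.31 to 0.24 and in vehicle from -0.11 to 0.09.

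Across the wider ADAMTS and ADAMTS-like family, 13 of 26 listed genes were tested, and the log2 fold change was above 0 for all 13, with a median of 0.36 beside 0.00 over all tested genes. None was called by limma, and 4 had an unadjusted p under 0.05. The voom model on recovered reads tested 12 of the family, without Adamts10, and called 0. With R replicate 2 left out, 12 of the 13 were above 0, the median was 0.21 and 0 were called. With R replicate 1 left out, 12 were above 0 and the median was 0.54, beside -0.01 over all tested genes. Adamts1, Adamts5 and Thsd4 were then called higher, in a fit where calls rose over all tested genes as well. With the length trend removed, 13 were above 0 with a median of 0.35. The 13 untested genes reached at most 1.05 FPKM, and with every gene above 0 in the fit, 18 of 22 were above 0 with a median of 0.22.

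The most abundant family members outside the 10 genes were Adamtsl4, which encodes an ADAMTS-like protein of the fibrillin microfibrils, and Adamts10, a protease of the same structures. Adamts10 had 14.3 and 14.1 FPKM in R and 10 and 8.75 in vehicle, with both R values above both vehicle values (log2 fold change 0.55, SE 0.124, limma adjusted p = 0.109). Adamtsl4 had 19.1 and 16.8 in R and 14.9 and 12.9 in vehicle, also without overlap (log2 fold change 0.35, SE 0.137, limma adjusted p = 0.296). Unlike Adamts1 and Adamts5, both had their higher R value in replicate 1.

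Among the proteins that ADAMTS enzymes cut, 11 of 14 listed genes were tested, 10 with a log2 fold change above 0, with a median of 0.35. In the main fit 1 was called in each direction, beside 0.345% of all tested genes higher and 1.37% lower. With the length trend removed 3 were called higher and 1 lower, beside 231 and 343 of all 12173 genes in that fit. The list median was 0.36 without R replicate 1 and 0.38 without R replicate 2. Col2a1, the fibrillar collagen of cartilage, rose, with 57.8 and 51.3 FPKM in R and 26.6 and 24.3 in vehicle (log2 fold change 1.07, SE 0.132, limma adjusted p = 0.022). It was not called without vehicle replicate 2 (limma adjusted p = 0.0532). Dcn, the small proteoglycan decorin, fell, with 16.5 and 17.8 in R and 36.7 and 34.3 in vehicle (log2 fold change -1.01, SE 0.122, limma adjusted p = 0.0203), and was not called without vehicle replicate 1 (limma adjusted p = 0.0566) or on the TPM scale (limma adjusted p = 0.058).

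Among the enzymes that TIMPs inhibit, 3 genes were called with all 4 libraries in the fit. Of 21 listed matrix metalloproteinases 13 were tested, 1 was called higher and 2 lower, beside 0.345% and 1.37% of all tested genes, and the median was 0.00. Mmp13, an interstitial collagenase, fell from 177 and 189.9 FPKM in vehicle to 42.9 and 52.2 in R (log2 fold change -1.93, SE 0.153, limma adjusted p = 0.00697). Mmp3, the broad protease stromelysin-1, fell from 9.07 and 8.97 to 0.978 and 0.767 (log2 fold change -2.42, SE 0.132, limma adjusted p = 0.00201). Mmp9, the gelatinase that is abundant in osteoclasts and myeloid cells, rose from 3.33 and 3.94 to 9.11 and 9.51 (log2 fold change 1.16, SE 0.129, limma adjusted p = 0.0155). The size for low genes depends on the pseudocount: Mmp3 was -1.26 with a pseudocount of 5, -3.24 with 0.1 and -3.35 in the voom model, and Mmp9 was 0.73 with a pseudocount of 5. In each of these 3 genes the groups stood far apart and the replicates close together. These 3 genes, with Col2a1 and Dcn, were not called when every gene above 0 entered the fit (adjusted p from 0.078 to 0.126). Mmp27 lay at the threshold, with 1.15 and 1.35 FPKM in R and 3.41 and 2.95 in vehicle (log2 fold change -0.89, limma adjusted p = 0.0516). Quantile normalization, no variance trend, the length trend removed and voom each called 3 of the listed MMPs lower.

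The summed FPKM of the MMP list was 369 and 364 in R and 479 and 502 in vehicle, with Mmp13 the gene that differed most in FPKM. Summed TIMP over summed MMP FPKM was 2.1 and 1.92 in R and 1.62 and 1.52 in vehicle, so both R libraries were higher. This order rests on Mmp13 and does not hold when that gene is left out of the sum. That ratio compares transcripts per length and says nothing of active protein.

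Among the membrane-bound ADAM proteases 8 of 9 listed genes were tested and 0 were called, with a median of -0.10, and 1 had an unadjusted p under 0.05. The most abundant were Adam9, with 50 and 69.5 FPKM in R and 61.9 and 67 in vehicle (log2 fold change -0.12, limma adjusted p = 0.8), and Adam15, with 53.7 and 40.2 in R and 51 and 46.5 in vehicle (log2 fold change -0.07, limma adjusted p = 0.892). Both overlapped between groups, and both have signs above 0 on the TPM scale. Of 11 genes listed as other protease inhibitors of the matrix, 6 were tested and 0 were called, with a median of 0.12. Of these, 3 had an unadjusted p under 0.05. Not every gene of this list encodes an inhibitor, as Serpinh1 below shows. Cst3, the cysteine protease inhibitor cystatin C, had 636 and 431 FPKM in R and 657 and 575 in vehicle (log2 fold change -0.23, limma adjusted p = 0.701). Serpinh1, a collagen chaperone of the serpin family, had 625 and 543 in R and 391 and 371 in vehicle, without overlap (log2 fold change 0.61, SE 0.172, limma adjusted p = 0.169). Serpinh1 was called higher on the TPM scale (limma adjusted p = 0.0372), with quantile normalization (0.0219) and with the length trend removed (0.0278). It was not called in the voom model (0.0752). Its log2 fold change stayed above 0 with either R library left out, at 0.51 without replicate 1 and 0.71 without replicate 2. Serping1, of the same list, had 93 and 79.6 FPKM in R and 153 and 137 in vehicle (log2 fold change -0.75, limma adjusted p = 0.0873). Quantile normalization, the length trend removed and voom each called 1 gene of the list lower.

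**Figure D4:**
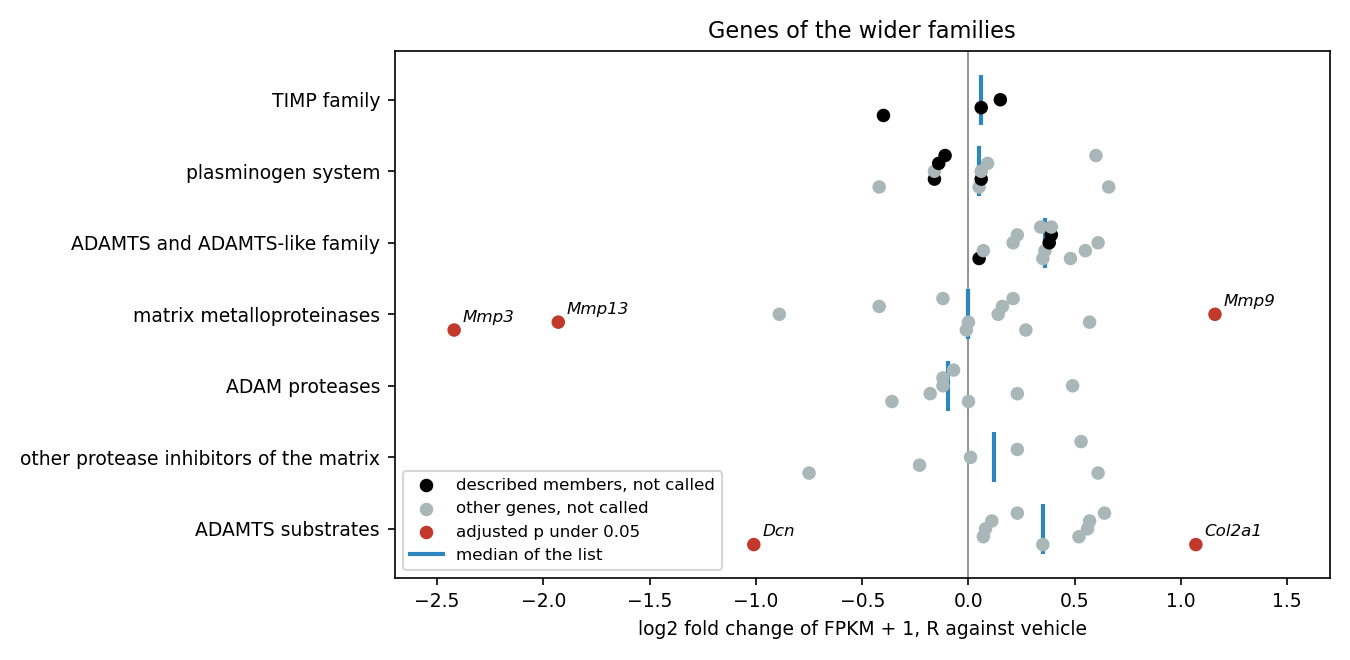
Log2 fold change of FPKM + 1, R against vehicle, for the tested genes of 7 lists, 1 row per list with points spread vertically only to separate them; black points are the 10 described genes, red points have an adjusted p under 0.05 and blue bars are list medians. All 13 ADAMTS and ADAMTS-like genes lie right of 0 with none called, and Mmp3, Mmp13, Mmp9, Dcn and Col2a1 are the called genes.

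The libraries hold transcripts of more than stromal cells. All 20 listed macrophage markers passed the filter, 19 with a log2 fold change below 0 (median -0.56). Of these markers 4 were called lower, beside 1.37% of all tested genes. Their summed FPKM was 16867 and 12923 in R and 24772 and 22119.9 in vehicle. Lyz2, the lysozyme of myeloid cells, alone had 8891 and 7061 in R and 14569 and 12539.7 in vehicle, and was not called (limma adjusted p = 0.321). Of 20 stromal markers 18 were tested, 12 above 0 (median 0.08), with 3 called lower, beside the same 1.37% of all tested genes. The stromal markers summed to 2472 and 2591 in R and 2111 and 2109.9 in vehicle. That step rested on Col1a1, with 852 and 795 in R and 532 and 526 in vehicle, and Col1a2, with 414 and 434 against 282 and 291. Without these the sums of the groups overlapped. Col1a1, Col1a2, Col3a1 and Dcn are also in the list of ADAMTS substrates, and Dcn is among the stromal markers called lower. Lepr, a marker of marrow stromal cells, was at 0.316 to 0.69 FPKM, while Cxcl12 was at 462 to 517. Cd3e and Hbb-bs, markers of T cells and red cells, were at 0 in all 4 libraries, but their lists were not. The 8 listed T and NK cell markers reached 8.14 FPKM, with 1 tested, and the 7 erythroid markers reached 0.361, with 0 tested. Of 8 osteoclast markers 4 were tested, 3 above 0, and 1 was called higher, beside 0.345% of all tested genes. That gene was Mmp9, which is also in the MMP list. The 8 osteoclast markers summed to 64.7 and 53 FPKM in R and 49.3 and 48.3 in vehicle. Among them Ctsk, the osteoclast protease cathepsin K, had 49.1 and 38 in R and 37.5 and 36 in vehicle (log2 fold change 0.23, limma adjusted p = 0.555), and Calcr, the calcitonin receptor, was at 0. These sums moved with the groups, the stromal one through Col1a1 and Col1a2, and their part in the levels of the 10 genes was not tested. In bulk RNA, fewer cells of a type and less RNA per cell cannot be told apart. R replicate 2 also had the smallest summed FPKM over all genes, 287360.1 beside 333129.5 to 345708.8, and recovered reads were 16534440 to 18085183 per library.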

How the data were processed

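RNA sequencing libraries of total RNA, 2 of R and 2 of vehicle, were grouped by the treatment labels. The deposited table gives FPKM per gene and library, per the file headers; its 10 empty unnamed columns were not used. GRCm38, mm10 and edgeR 3.18.1 are named per the submitters' processing notes, edgeR without a stated role. Aligner, counter and strand setting: not given in the sources used here. Of 54532 identifiers 54495 were found in GENCODE M21 (GRCm38), the source of symbols, 1-based coordinates and exon lengths. FPKM times exon length gave whole reads, within 0.02, for 96.3 to 96.4% of values above 0; reads were summed over the 24113 genes whole in all 4 libraries, and a 2 kb gene at 1 FPKM had about 34 reads.

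Log2(FPKM + 1) values were fitted in limma 3.58.1 (R 4.3.3) without further terms, with a variance trend (eBayes; 2 residual and 3.83 prior degrees of freedom) and Benjamini-Hochberg adjustment. Tested were the 12176 genes averaging 1 FPKM or more. The code was tested on simulated data. The genes and lists were chosen with earlier results of these data known. Named were the 10 genes and, per list, each called gene or else the 2 tested genes with the highest mean. Lrp1, Mrc2, Thsd4, Serping1 and Mmp27 were named after their values were seen. For likeness, the 3 nearest genes to those with the highest and lowest fold change were named, leaving out predicted genes and pseudogenes. The length trend was a loess (span 0.3) on log2 exon length. Alternatives were pseudocounts of 0.1 and 5, other filters, TPM, quantile normalization, no variance trend, voom on recovered reads, the length trend removed, a replicate block and leaving out each library.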

Additional observations from a re-analysis of the deposited data

How the results depend on the processing

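No member was called in 12 of 14 alternatives. Of 139 values of the 10 genes under alternatives, 130 kept direction and side of the threshold, 5 became called and 4 changed sign: Plau was 0.02 on the TPM scale, and over the leave-outs Timp3 ran from -0.24 to 0.53, Plat from -0.03 to 0.15 and Adamts2 from -0.0004 to 0.10. Leaving out each library gave 0 to 2 members called higher and 0 to 1 lower, the calls being those without R replicate 1 given above. The numbers of the replicates pair nothing in the labels. Over the 12176 tested genes, the difference between the R replicates correlated at 0.35 with that between the vehicle replicates. Both differences moved with gene length. With a replicate block 2 members were called higher, Adamts1 (limma adjusted p = 0.05, rounded) and Adamts5 (0.0416), and 891 of all genes higher and 1009 lower. The block also called 5 ADAMTS and ADAMTS-like genes higher, among them Adamts10 (limma adjusted p = 0.00129), and 2 plasminogen system genes higher and 1 lower. It called 2 matrix metalloproteinases higher and 4 lower, and 1 ADAM protease higher. Of the other listed inhibitors it called 2 higher, among them Serpinh1 (limma adjusted p = 0.042), and 1 lower. Over all genes, against 42 higher and 167 lower, the length trend removed gave 231 and 343, voom on recovered reads gave 83 higher, and leave-outs gave 96 to 438 higher and 193 to 665 lower. Without a filter limma called 0 higher and 0 lower, with 2767 at an unadjusted p under 0.05 among 24958 genes. Quantile normalization called 62 higher and 185 lower. On the TPM scale Adam9 was 0.01 and Adam15 0.07. Over the leave-outs Eno1 ran from -0.17 to 0.29, Anxa2 from -0.17 to 0.35, Adam9 from -0.36 to 0.11, Adam15 from -0.27 to 0.14 and Cst3 from -0.51 to 0.05. The cause of these changes was not tested. With 2 libraries a group and a median standard error of 0.148, small differences could not be resolved: the intervals of Timp1 and Timp3 allow changes in either direction.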
